A study of Mus musculus with 24 samples.

Results

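The insulin-like growth factor (IGF) system was followed through 10 genes: the ligands Igf1 and Igf2, the receptors Igf1r and Igf2r, and the binding-protein genes Igfbp2, Igfbp3, Igfbp4, Igfbp5, Igfbp6 and Igfbp7. They were chosen by symbol among the 45468 genes of the deposited count tables, and each symbol was listed once. Polyadenylated RNA had been sequenced from brain endothelial fractions of mice in 24 libraries, 3 for each genotype at each of 4 stages: embryonic day E15.5, postnatal day 5 (P5), postnatal day 9 (P9) and adult. The study concerns the transcription factor Sox17 and canonical Wnt signalling in the blood-brain barrier. Dissociated brain cells had been depleted of CD45-positive cells and then selected on CD31 beads.

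Every animal was Sox17flox/flox and was exposed to tamoxifen. Sox17iECKO animals carried Cdh5(PAC)-Cre-ERT2, a tamoxifen-activated recombinase driven by an endothelial promoter, and wt animals lacked it, so that the wt group carried the floxed alleles and had the drug as well. Embryos were exposed through the mother, which had 1 mg on days 11.5 and 13.5 of pregnancy. Pups of both postnatal stages had 100 μg on postnatal day 1. Adults had 4 injections of 1.5 mg from 6 weeks of age and were taken 1 week later. One dissociation kit was used for E15.5 and P5 and another for P9 and adults, so that between P5 and P9, which shared dose and day, stage, kit and time since tamoxifen cannot be told apart. Within each kit, between E15.5 and P5 and between P9 and adult, stage and tamoxifen schedule cannot be told apart. Between E15.5 and P9, E15.5 and adult, or P5 and adult, stage, kit and tamoxifen schedule all differ and cannot be told apart. Whether a library held 1 animal or a pool is not stated in the labels, which call the replicates biologically independent.

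IGF1 and IGF2 are secreted growth factors that signal for growth and survival through the tyrosine kinase IGF1R. IGF2R has no kinase: it takes IGF2 into the cell for breakdown and sorts lysosomal enzymes. Binding proteins hold the ligands outside the cell, lengthen their life in the circulation, and can limit or enhance what reaches the receptor. In the brain, IGF2 is typical of vessels, meninges and choroid plexus, and IGFBP7 is abundant in vascular endothelium.

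The libraries held 12301779 to 19830600 counts, with 20147 to 22600 genes detected, and their number and depth limit the precision. Levels are given as CPM (counts scaled to a common library size), adjusted between libraries by the TMM method. Differences are log2 fold changes from the edgeR quasi-likelihood test over 17159 genes, with Benjamini-Hochberg adjusted p-values. A gene is called, and is said to rise or fall, where that adjusted p was under 0.05. The targeted gene Sox17 did not overlap between genotypes at any stage and stood in Sox17iECKO at 10.1%, 6.01%, 7.01% and 17.8% of the wt mean from E15.5 to adult. Its deleted exons were not examined. Endothelial markers summed to 4173 to 20392 CPM over the 24 libraries with none of the 10 at 0 in all 3 libraries of a group, while mural, glial and choroid plexus markers were also present. In such mixed bulk RNA, fewer cells of a type and less RNA per cell cannot be told apart.

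Levels of different genes were compared per length, as the authors' TPM (transcript counts scaled for gene length and library). Igfbp7 was the most abundant of the 10 in all 8 groups, at 4090 ± 617 TPM in P9 Sox17iECKO and 3511 ± 289 TPM in P9 wt libraries (SD, n = 3 each). Igf1 was the least abundant in all 8, between a group mean of 0.47 and 1.16 TPM. In P9 wt libraries Igfbp7 was followed by Igfbp4 at 400 ± 19.4, Igf2 at 239 ± 41.2, Igfbp2 at 151 ± 30.3 and Igf1r at 149 ± 8.71 TPM. Igfbp2 and Igf1r overlapped between libraries there, as did Igf2r at 49.5 ± 5.2 and Igfbp3 at 46.6 ± 4.39 TPM. In P9 Sox17iECKO libraries Igfbp3 stood second, at 2158 ± 394 TPM, with no overlap with Igfbp7 above it or with Igf1r below it.

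**Figure D1:**
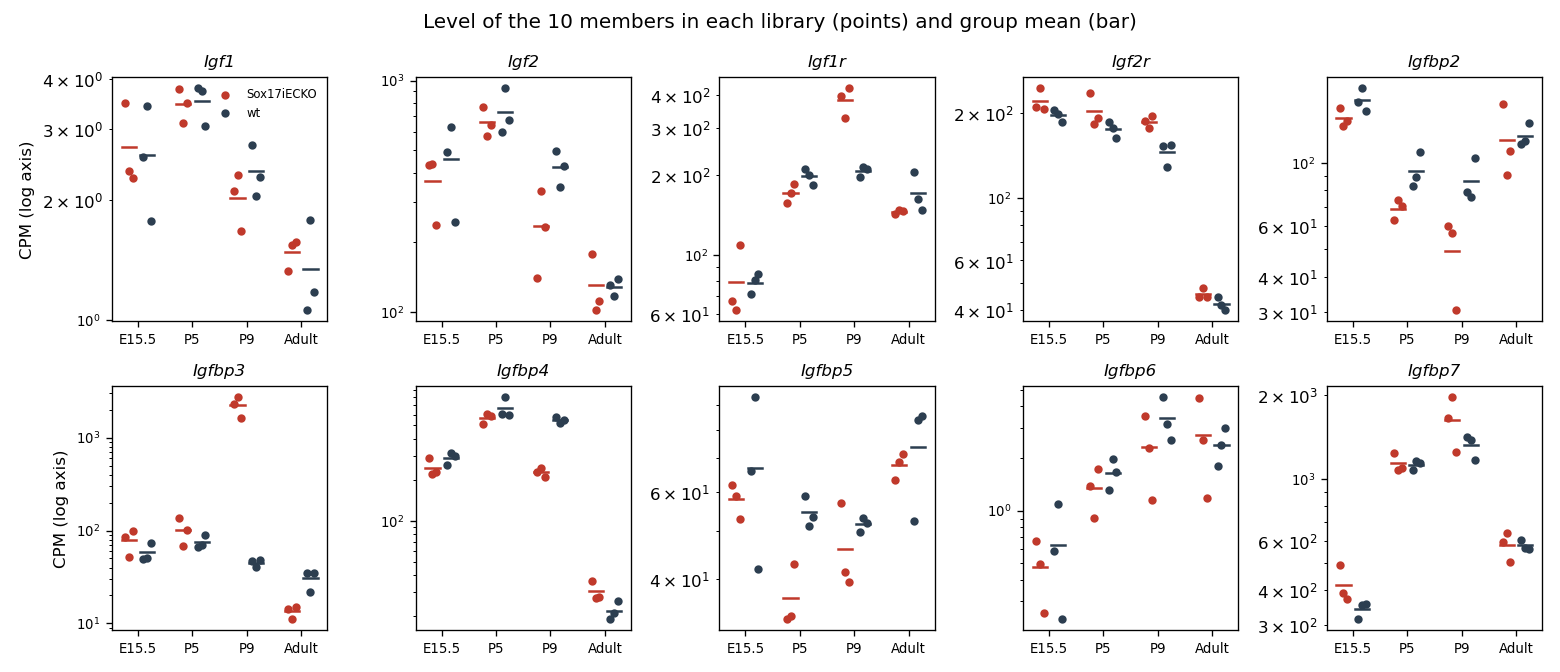
Level of each of the 10 genes in CPM (log axis, own range per panel) by stage; points are libraries and bars group means, Sox17iECKO in red to the left of wt in dark blue (n = 3). The P9 Sox17iECKO libraries of Igfbp3 lie between 1624 and 2715 CPM, while no other library of that gene exceeds 136 CPM.

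At P9 Igfbp3 rose and Igfbp4 fell furthest of the 10 in Sox17iECKO, and the 250 bases before their annotated starts are shown for that reason. Both genes lie on chromosome 11 but far apart, and a link between them was not tested. The sequences are RefSeq's on build GRCm38.p6, chr11:7213924-7214173 on the minus strand for Igfbp3 and chr11:99040994-99041243 on the plus strand for Igfbp4, written 5′ to 3′ in the direction of the gene, with the only motif match in capitals.
Igfbp3: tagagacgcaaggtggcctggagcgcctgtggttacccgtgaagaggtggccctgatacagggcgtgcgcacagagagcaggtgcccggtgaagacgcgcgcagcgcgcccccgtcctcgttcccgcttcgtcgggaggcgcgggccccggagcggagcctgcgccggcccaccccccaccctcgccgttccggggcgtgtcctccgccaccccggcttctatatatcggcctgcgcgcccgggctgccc
Igfbp4: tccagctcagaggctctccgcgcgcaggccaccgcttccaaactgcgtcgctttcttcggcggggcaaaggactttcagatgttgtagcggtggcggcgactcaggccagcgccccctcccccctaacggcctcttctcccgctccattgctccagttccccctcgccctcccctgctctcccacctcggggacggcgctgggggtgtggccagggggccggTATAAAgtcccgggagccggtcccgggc

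Each promoter was searched for 4 letter strings on both strands, AACAAT (bound by SOX factors), TGTTTAC (FOXO factors), ACGTG (hypoxia-inducible factors) and TATAAA (the TATA box). The Igfbp4 window holds TATAAA at -28 to -23 from the start, a string found in 12.4% of 32851 windows of the same length, and no other match that it could overlap. None of the 4 strings is in the Igfbp3 window, which says only that these letters are not there. Among all windows AACAAT is in 9.42%, TGTTTAC in 3.17% and ACGTG in 16.6%. Both promoters are rich in G and C, with 73.2% for Igfbp3 and 69.2% for Igfbp4 against a median of 52.4%, and hold 32 and 22 CpG pairs against a median of 6. Among the other members AACAAT is in the Igf2 window, ACGTG in those of Igf2, Igf2r, Igfbp2 and Igfbp7, and TATAAA in that of Igfbp6.

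At P9, 6 of the 10 members differed between Sox17iECKO and wt, in a comparison in which 28% of all genes tested were called, 13.5% higher and 14.6% lower. Igfbp3, Igf1r and Igf2r rose, and Igfbp4, Igfbp2 and Igf2 fell. The members' median log2 fold change was -0.19, beside 0.02 over all genes. In no other stage was a member called in edgeR, where 0.548% of genes were called at E15.5, 0.53% at P5 and 0.0874% in adults. At an unadjusted p under 0.05 in edgeR there were 7 members at P9, 1 at E15.5, 3 at P5 and 2 in adults. Of all 17159 genes, 6701, 856, 1326 and 604 were under it at these stages in turn. DESeq2 called 0 members at E15.5, 0 at P5 and 1 in adults, and limma-trend 0 at each of these stages. The shares of all genes called in those fits are not given.

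**Figure D2:**
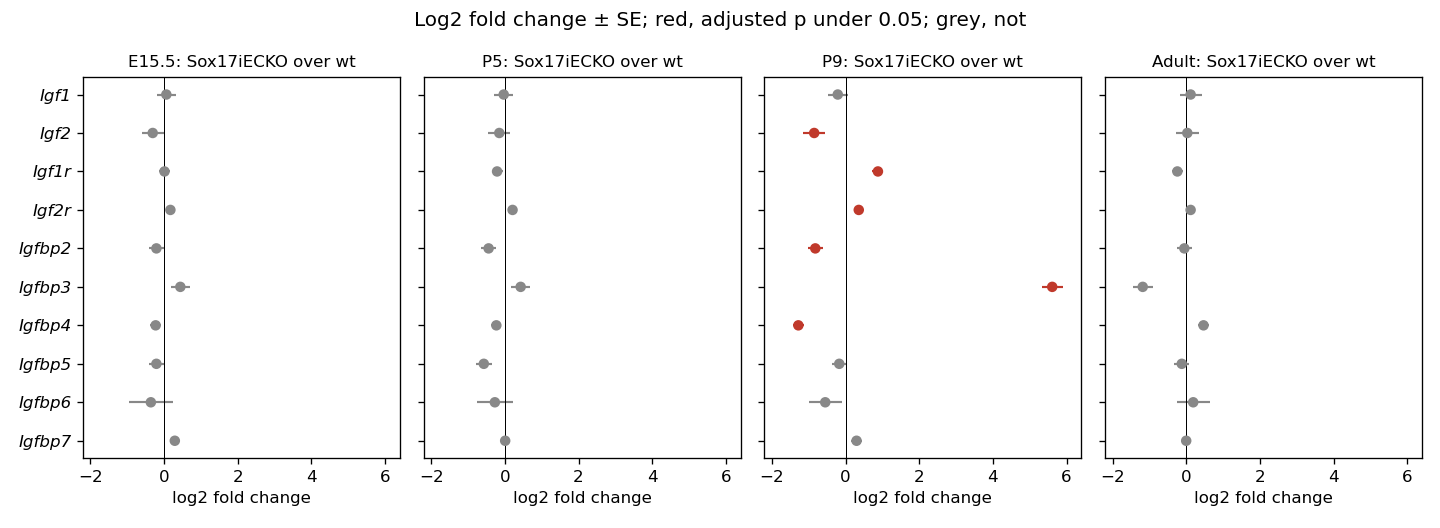
Log2 fold change of Sox17iECKO over wt for each of the 10 genes at each stage, with its standard error; red marks an adjusted p under 0.05 (edgeR) and grey the rest. The 6 red points are all at P9, and Igfbp3 stands at 5.61 there.

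Between the genotypes, red cell markers summed at E15.5 to 524 to 820 CPM in Sox17iECKO and 2566 to 3453 CPM in wt libraries. At P5 the smooth muscle marker Myh11 fell in Sox17iECKO (log2 -0.97, adjusted p 0.036, edgeR). Markers of several other cell types differed at P9. Of 8 pericyte markers 5 fell, and their summed level ranged over 673 to 1710 CPM in Sox17iECKO and 2623 to 3630 CPM in wt libraries. Rgs5, a pericyte signalling regulator, fell by 1.70 on the log2 scale (adjusted p 0.0002, edgeR). Fibroblast markers summed to 146 to 192 CPM in Sox17iECKO and 305 to 396 CPM in wt libraries, with 5 of 6 tested lower, and smooth muscle markers to 35.6 to 79 and 148 to 201 CPM, with 4 of 5 tested lower. Astrocyte markers summed to 786 to 1152 CPM in Sox17iECKO and 513 to 588 CPM in wt libraries, with 5 of 7 higher. Endothelial markers summed to 16455 to 20392 and 15436 to 15885 CPM, with 3 of 10 higher and 2 lower. Neural progenitor markers summed to 370 to 421 CPM in Sox17iECKO and 664 to 688 CPM in wt libraries, with Nes called lower (log2 -1.20) and the other 4 of 5 not called. Of 5 oligodendrocyte precursor markers Pdgfra rose and Cspg4 fell, and of 8 microglia and macrophage markers C1qa rose. No marker of these lists was at 0 in all 3 libraries of either P9 group, and their part in the members' differences was not tested.

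Among the ligands, Igf2 (ENSMUSG00000048583, mm10 chromosome 7, 142650766 to 142666816, minus strand), the imprinted fetal growth factor, had 140, 332 and 234 CPM in P9 Sox17iECKO libraries, against 499, 348 and 426 CPM in wt libraries. Every Sox17iECKO library was below every wt library, but the second Sox17iECKO library nearly reached the lowest wt one. The log2 fold change was -0.85 ± 0.30 (SE), and its adjusted p of 0.04 in edgeR stood at 0.056 in DESeq2 and lost the call in 8 of 13 alternatives. It was 2.3e-10 in the fit without a count filter and 0.0068 to 0.18 in the other 12. Without wt library 1 or 3, or Sox17iECKO library 1 or 3, it was 0.14, 0.081, 0.18 and 0.077. Over the P9 libraries of both genotypes, Igf2 and the pericyte marker sum had the same order. Those sums were 673, 1710 and 1605 CPM in Sox17iECKO and 3630, 2623 and 3273 CPM in wt libraries. The fibroblast and meningeal sum had that order too, with 146, 192 and 186 CPM in Sox17iECKO and 396, 305 and 340 CPM in wt libraries. The part of these cells in the difference was not tested.

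At E15.5 Igf2 had 431, 435 and 238 CPM in Sox17iECKO libraries, against 493, 633 and 246 CPM in wt libraries. The library numbered 3 was low in both genotypes, and so was its pericyte marker sum, 720 CPM in Sox17iECKO and 633 CPM in wt, beside 1322 to 1870 CPM in the other E15.5 libraries. Its fibroblast and meningeal sum was low as well, 136 CPM in Sox17iECKO and 152 CPM in wt, beside 312 to 546 CPM. The choroid plexus and ependyma sum was 49 and 53.8 CPM, beside 272 to 560 CPM. At P5 Igf2 had 766, 575 and 640 CPM in Sox17iECKO libraries, against 597, 926 and 675 CPM in wt libraries, and in adults 179, 102 and 112 CPM against 131, 117 and 139 CPM. At P5 and in adults the orders of Igf2 and of the pericyte sums were not the same throughout. The highest P5 sums, 5000 CPM in Sox17iECKO and 4881 CPM in wt, were in the libraries with the most Igf2, 766 and 926 CPM. The lowest P5 sum, 3049 CPM, was in the Sox17iECKO library with 640 CPM of Igf2. The adult Sox17iECKO libraries at 179 and 102 CPM of Igf2 had sums of 464 and 461 CPM. The groups overlapped at these 3 stages, with log2 fold changes of -0.31, -0.15 and 0.03.

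**Figure D3:**
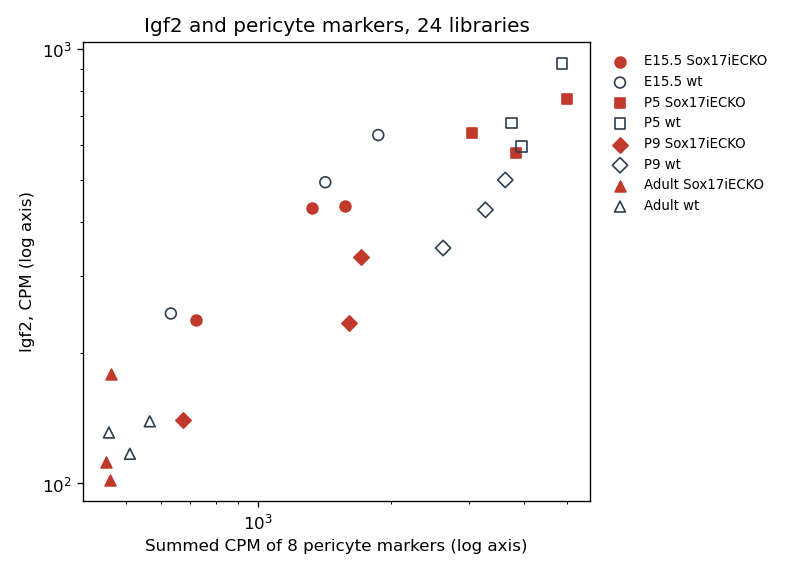
Igf2 level against the summed level of 8 pericyte markers (both in CPM, log axes) in the 24 libraries; filled red symbols are Sox17iECKO, open ones wt, and shapes mark the stage. Libraries with low pericyte sums, such as the P9 Sox17iECKO library at 673 CPM and all 6 adult libraries, lie at low Igf2.

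Igf1 (ENSMUSG00000020053, chromosome 10, 87858265 to 87937042, plus strand), the hormone made mainly by liver and also locally in the brain, was scarce. It had 2.1, 2.31 and 1.67 CPM in P9 Sox17iECKO libraries, against 2.75, 2.04 and 2.28 CPM in wt libraries, which overlapped. Its fold change was not called at any stage (adjusted p 0.59 at P9 and 0.99 to 1 at the others). Over the 24 libraries it had 14 to 63 counts.

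Of the receptors, Igf1r (ENSMUSG00000005533, chromosome 7, 67952859 to 68226780, plus strand), which carries the growth signal of both ligands, had 395, 326 and 423 CPM in P9 Sox17iECKO libraries, against 196, 214 and 211 CPM in wt libraries. The groups stood well apart, and Igf1r rose by 0.88 ± 0.15 log2 (adjusted p 0.00013), 1.84-fold on group means. It was called under all 13 alternatives, with values of 0.68 to 0.97. At the other stages the groups overlapped. Igf1r had 67, 61.9 and 109 CPM in E15.5 Sox17iECKO libraries against 71, 80.3 and 84.8 CPM in wt libraries, 157, 171 and 185 against 210, 200 and 183 CPM at P5, and 142, 148 and 146 against 205, 162 and 147 CPM in adults.

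Igf2r (ENSMUSG00000023830, chromosome 17, 12682406 to 12769664, minus strand), the clearing receptor, had 187, 177 and 194 CPM in P9 Sox17iECKO libraries, against 152, 129 and 154 CPM in wt libraries. The groups did not overlap, and the rise of 0.36 ± 0.10 log2 had an adjusted p of 0.0077. That call was lost without wt library 2 (adjusted p 0.062), and with libraries scaled to the summed endothelial markers the change was 0.15 (adjusted p 0.47). Igf2r was also a little higher in Sox17iECKO at the other stages, by 0.17, 0.21 and 0.12 log2, none called.

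Among the binding proteins, Igfbp3 (ENSMUSG00000020427, chromosome 11, 7206086 to 7213923, minus strand), the main IGF carrier of blood, changed furthest. At P9 it had 2315, 2715 and 1624 CPM in Sox17iECKO libraries, against 46.9, 40.9 and 47.8 CPM in wt libraries. The lowest Sox17iECKO library was far above the highest wt library, the means differed 49-fold, and the rise was 5.61 ± 0.29 log2 (adjusted p 2.3e-12, edgeR). Leaving out any 1 of the 6 libraries or changing scaling, filter or test gave 5.37 to 5.79. At E15.5 Igfbp3 had 85.1, 52.4 and 99.4 CPM in Sox17iECKO libraries against 49.5, 50.6 and 74.3 CPM in wt libraries, and at P5 136, 69 and 101 CPM against 66.7, 70.5 and 89.9 CPM. Those groups overlapped, with log2 fold changes of 0.44 and 0.43 that were not called (adjusted p 1 and 0.72; at P5 0.05, and called, without a count filter).

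In adults the direction of Igfbp3 was the other way. It had 14.2, 11.1 and 15.1 CPM in adult Sox17iECKO libraries, against 35.3, 21.9 and 34.9 CPM in wt libraries. The groups did not overlap and the log2 fold change was -1.18 ± 0.27, but its adjusted p was 0.15 in edgeR. It was called in 4 of 13 alternatives, with 5.2e-15 without a count filter, 0.0032 in DESeq2, 0.011 in a fit of the 6 adult libraries alone and 0.044 with a replicate block, and reached 0.92 without the second Sox17iECKO library. The knockout effects themselves differed between stages (interaction adjusted p 2.1e-10, beside 13.5% of genes called). The P9 effect exceeded that at E15.5 by 5.17 ± 0.37 log2 and that at P5 by 5.19 ± 0.36, and adult minus P9 gave -6.79 ± 0.39 (adjusted p 7.6e-11). Of all genes 15.8%, 15.7% and 13.2% were called in these 3 differences.

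Igfbp4 (ENSMUSG00000017493, chromosome 11, 99041244 to 99054392, plus strand), which holds IGFs until the protease PAPP-A cleaves it, had 228, 243 and 209 CPM in P9 Sox17iECKO libraries, against 573, 522 and 551 CPM in wt libraries. The groups stood well apart, and Igfbp4 fell by 1.28 on the log2 scale (SE 0.14, adjusted p 2.8e-07), with -1.50 to -1.22 over 13 alternatives. In adults, where it was scarce, the Sox17iECKO libraries at 36.3, 27.3 and 27.6 CPM were all above the wt libraries at 19, 21 and 25.7 CPM, but the log2 fold change of 0.47 was not called (adjusted p 0.84). At E15.5 and P5 the fold change was -0.23 in each, with overlapping groups. These effects differed between stages (interaction adjusted p 1.5e-05), as did those of Igf1r (0.0018) and of no other member besides Igfbp3.

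Igfbp2 (ENSMUSG00000039323, chromosome 1, 72824503 to 72852474, plus strand), the chief binding protein of cerebrospinal fluid, had 60.3, 56.6 and 30.5 CPM in P9 Sox17iECKO libraries, against 79.2, 75.9 and 104 CPM in wt libraries. The third Sox17iECKO library was the lowest of the 6 and the groups did not overlap. Igfbp2 fell by 0.82 on the log2 scale (SE 0.20, adjusted p 0.0035) and was called under all 13 alternatives. At P5 it had 63.1, 74.1 and 70.3 CPM in Sox17iECKO libraries against 82.7, 88.8 and 109 CPM in wt libraries, which did not overlap either, without a call (log2 -0.44, adjusted p 0.6; 0.038 without a count filter).

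The other 3 binding proteins were not called at P9. Igfbp7 (ENSMUSG00000036256, chromosome 5, 77349240 to 77408041, minus strand), which binds IGFs weakly, had 1650, 1962 and 1251 CPM in P9 Sox17iECKO libraries against 1416, 1378 and 1165 CPM in wt libraries, with overlap (log2 0.30, adjusted p 0.11 in edgeR). It was called in DESeq2 (0.036) and without the third Sox17iECKO library (0.013), and was 0.06 (adjusted p 0.73) with endothelial marker scaling. Igfbp5 (ENSMUSG00000026185, chromosome 1, 72857932 to 72874884, minus strand), which also binds extracellular matrix, had 33.1, 33.6 and 42.8 CPM in P5 Sox17iECKO libraries against 58.8, 51.1 and 53.4 CPM in wt libraries, with no overlap and no call (log2 -0.57, adjusted p 0.4). It was called in 2 of 13 alternatives, without a count filter (0.0037) and in a fit of the 6 P5 libraries alone (0.026). At P9 its groups overlapped (log2 -0.17). Igfbp6 (ENSMUSG00000023046, chromosome 15, 102144362 to 102149511, plus strand), which prefers IGF2, had only 4 to 77 counts a library and fold changes of -0.55 to 0.19 log2 over the stages.

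Counted together, the 6 binding-protein transcripts summed to 6517 ± 1030 TPM in P9 Sox17iECKO and 4146 ± 251 TPM in P9 wt libraries (SD, n = 3 each), and the libraries did not overlap. Igfbp3 made up 33% of that sum in Sox17iECKO (31.9% to 33.6%) and 1.13% in wt libraries (0.987% to 1.3%). The share of Igfbp4 was 2.46% in Sox17iECKO and 9.68% in wt libraries, and that of Igfbp7 62.8% and 84.6%. At the other stages the Igfbp3 share was at most 6.69% in any library. In adults it was 0.77% in Sox17iECKO (0.588% to 0.969%) and 1.7% in wt libraries (1.25% to 1.94%). These shares are of transcripts in each fraction and were not tested.

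**Figure D4:**
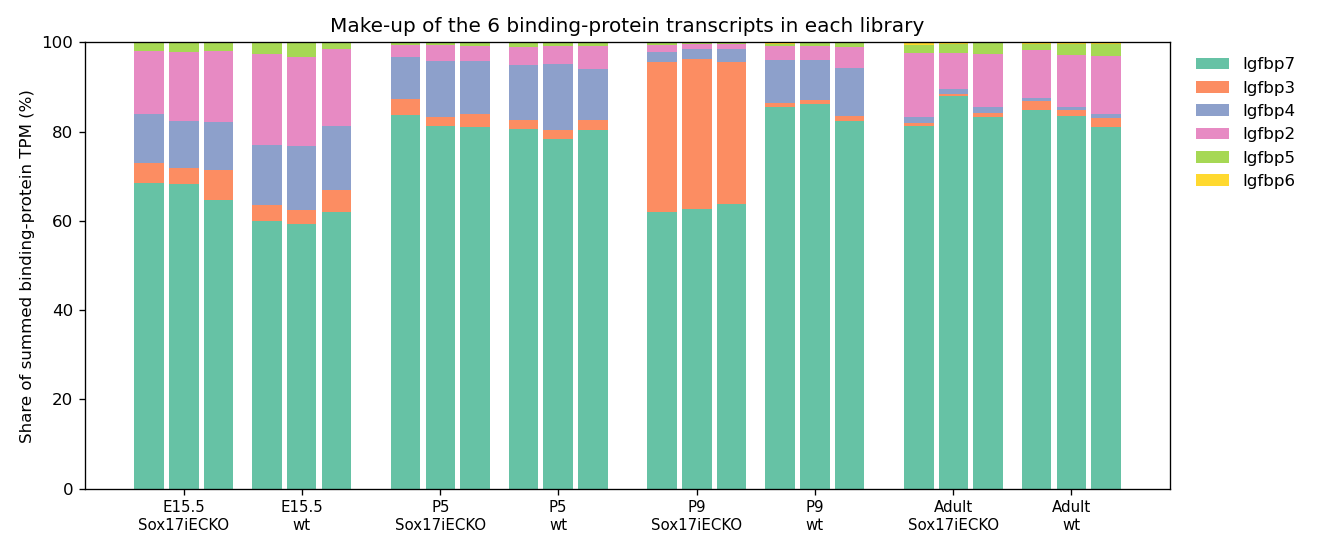
Share of each of the 6 binding-protein genes in their summed TPM (percent, stacked to 100) in each of the 24 libraries, grouped by stage with Sox17iECKO left of wt. The orange Igfbp3 band takes 31.9% to 33.6% of the 3 P9 Sox17iECKO bars and at most 6.69% of any other.

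Another 4 lists of pathway genes were read beside the 10 members. Of 22 insulin and IGF signalling genes, 6 rose and 1 fell at P9, in a comparison that called 28% of all genes (median log2 fold change 0.12, beside 0.02 over all genes). The count of 7 in 22 is near that share. Foxo3, a transcription factor that AKT keeps out of the nucleus, averaged 102 ± 4.08 CPM in Sox17iECKO and 56.9 ± 0.949 CPM in wt libraries (SD, n = 3 each; log2 0.84, adjusted p 1.9e-07). Insr, the insulin receptor and closest relative of Igf1r, averaged 535 ± 3.78 and 302 ± 13.2 CPM (log2 0.82, adjusted p 2.3e-05). Tsc1, a brake on mTOR, rose by 0.65 log2 and Grb14, an adaptor that inhibits the insulin receptor, fell by 0.45. The count was 2 higher and 1 lower with endothelial marker scaling, where Tsc1 had an adjusted p of 0.062, and 3 higher and 1 lower without P9 wt library 1 or 2.

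Of 13 extracellular IGF regulators, 11 were tested and 2 rose and 1 fell at P9, again near the 28% of all genes. Igfbp1, an IGF binding protein that insulin represses in liver, had 135, 219 and 124 counts in Sox17iECKO libraries, against 7, 8 and 4 counts in wt libraries. No library overlapped, and the log2 fold change was 4.34 ± 0.64 (adjusted p 5.9e-06). Stc1, a stanniocalcin that inhibits PAPP-A, averaged 24 ± 4.39 CPM in Sox17iECKO and 7.71 ± 1.11 CPM in wt libraries (log2 1.62). Adam12, a protease that cleaves binding proteins, averaged 4.06 ± 1.22 and 9.67 ± 0.699 CPM (log2 -1.22). Of 4 RNA partners of Igf2, H19, the imprinted RNA beside Igf2, averaged 6.07 ± 2.76 CPM in Sox17iECKO and 12 ± 1.15 CPM in wt libraries (log2 -1.01, adjusted p 0.0035), and the other 3 were not called in edgeR. With endothelial marker scaling, or without the third Sox17iECKO library, 2 of the 4 were called, both lower.

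Of 15 genes known as FOXO targets 14 were tested, and 11 rose and 1 fell at P9, beside 13.5% of all genes higher and 14.6% lower (median log2 fold change 0.73, beside 0.02 over all genes). Txnip, which restrains glucose uptake, averaged 594 ± 133 CPM in Sox17iECKO and 153 ± 11.5 CPM in wt libraries (log2 1.95). Pik3ip1, an inhibitor of PI3-kinase, averaged 99.3 ± 27.2 and 30.1 ± 2.33 CPM (log2 1.72). Sesn1, a stress protein that restrains mTOR, rose by 0.94 and Klf15, a metabolic transcription factor, by 1.71 log2. Tnfsf10, the death ligand TRAIL, went against the others, at 18.2 ± 0.487 CPM in Sox17iECKO and 36.1 ± 1.8 CPM in wt libraries (log2 -0.98). At E15.5 Tnfsf10 was the only called gene of these lists, and higher in Sox17iECKO (log2 1.31, adjusted p 0.024 in edgeR), with 40, 52 and 39 counts against 8, 25 and 5. That call was lost in 7 of 14 alternatives, among them the fits without wt library 1 or 3 (0.18 in each) and without Sox17iECKO library 1 (0.081) or 2 (0.1).

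Development in wt animals was followed over the same 4 stages, and the P9 wt libraries used there are those set against the P9 Sox17iECKO libraries above. Between E15.5 and P5, 5 of 10 members were called, 4 higher and 1 lower, in a comparison that called 66.6% of all genes, 36.2% higher and 30.4% lower. Between P5 and P9 none was called in edgeR, where 5.12% of genes were. At an unadjusted p under 0.05 there were 5 members, beside 3424 of all 17159 genes. DESeq2 called 2 members, and the share of all genes called in that fit is not given. Between P9 and adult 7 were called, 2 higher and 5 lower, beside 61.1% of genes (30.8% higher, 30.3% lower), and 4 were called without P9 wt library 1 or adult wt library 3. Adult against E15.5 gave 8, 3 higher and 5 lower, beside 69.6% (35.2% higher, 34.3% lower). The endothelial marker sum of wt libraries ranged over 4173 to 4932 CPM at E15.5, 14464 to 16015 CPM at P5, 15436 to 15885 CPM at P9 and 10628 to 11369 CPM in adults. Scaling the libraries to that sum moved the median of all genes by -1.65 log2 for P5 over E15.5, 0.48 for adult over P9 and -1.25 for adult over E15.5. The calls among members then became 0 higher and 7 lower, 2 higher and 4 lower, and 0 higher and 8 lower. The shares of all genes called with that scaling are not given, so these counts say nothing particular to the members. Other cell types shifted as well between E15.5 and P5 in wt libraries. Neuron markers summed to 1391 to 1720 CPM at E15.5 and 179 to 285 CPM at P5, and pericyte markers to 633 to 1870 and 3746 to 4881 CPM. The part of these shifts in the changes of members and of other IGF genes over that step was not tested.

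**Figure D5:**
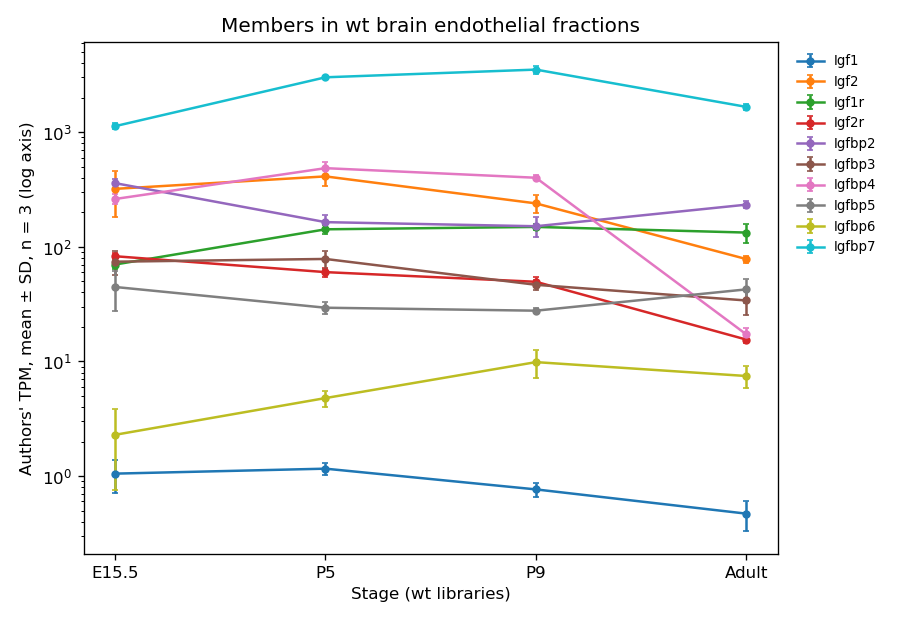
Authors' TPM of the 10 genes in wt libraries by stage (log axis), mean and SD of 3 libraries. Igfbp7 is highest at every stage, and Igfbp4 shows the widest change, with 400 TPM at P9 and 17.2 TPM in adults.

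Igfbp4 had the widest course. Its wt libraries had 255, 311 and 300 CPM at E15.5, 603, 802 and 591 at P5, 573, 522 and 551 at P9, and 19, 21 and 25.7 in adults. Adults were far below every earlier stage, with a log2 fold change of -4.64 ± 0.16 from P9 (adjusted p 4.6e-16), called under all 13 alternatives with no change of direction. Its rise between E15.5 and P5 was 1.20 log2 (adjusted p 9.1e-08), but -0.51 with endothelial marker scaling.

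Igf2 in wt libraries had 493, 633 and 246 CPM at E15.5, 597, 926 and 675 at P5, 499, 348 and 426 at P9, and 131, 117 and 139 in adults. Adults fell below all P9 libraries by 1.72 on the log2 scale (adjusted p 5e-05). All 8 pericyte markers were lower in wt adults than at P9, summing to 458 to 567 CPM against 2623 to 3630 CPM. Fibroblast and meningeal markers summed to 55.2 to 68.2 CPM in wt adults and 305 to 396 CPM at P9. Choroid plexus and ependyma markers went the other way, to 5438 to 6266 CPM from 1696 to 2546 CPM. The part of these lists in the fall of Igf2 was not tested. Between E15.5 and P5 Igf2 was not called (log2 0.68, adjusted p 0.052). The rise was called in 4 of 14 alternatives, without a count filter (3.2e-06), with a replicate block (0.036), without E15.5 wt library 2 (0.99, adjusted p 0.012) and without P5 wt library 1 (0.81, adjusted p 0.04). It was 0.38 without the E15.5 libraries numbered 3, 0.49 without P5 wt library 2 and -1.04 (adjusted p 0.0023) with endothelial marker scaling.

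Igf2r in wt libraries had 204, 198 and 185 CPM at E15.5, 186, 176 and 163 at P5, 152, 129 and 154 at P9, and 44.4, 41.8 and 40 in adults. The adult libraries lay below all others and close together, 1.78 lower in log2 than P9 (a log2 fold change of -1.78 ± 0.10, adjusted p 7.2e-13). Igf1r had its lowest wt libraries at E15.5, 71, 80.3 and 84.8 CPM, beside 210, 200 and 183 CPM at P5 and 205, 162 and 147 CPM in adults. Its rise between E15.5 and P5 was 1.33 log2 (adjusted p 1.2e-07), and -0.38 with endothelial marker scaling.

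Igfbp7 in wt libraries had 314, 354 and 356 CPM at E15.5, 1077, 1156 and 1142 at P5, 1416, 1378 and 1165 at P9, and 604, 567 and 562 in adults. It rose by 1.72 log2 between E15.5 and P5 (adjusted p 3.9e-10; 0.01 and not called with endothelial marker scaling) and fell by 1.19 between P9 and adult (adjusted p 1.1e-07). Adults were above E15.5 by 0.76 log2, but -0.51 with endothelial marker scaling. Igfbp3 fell by 0.92 on the log2 scale between E15.5 and adult in wt libraries (adjusted p 0.0026), with none of the single steps called in edgeR. Alternatives differed on those steps. P9 against P5 was called without a count filter (2.3e-07), with only the libraries compared (0.00098) and in DESeq2 (0.034). Adult against P9 was called without a count filter (7.1e-05), with a replicate block (0.031) and with only the libraries compared (0.0027). For P5 against E15.5 the log2 fold change was 0.38, called without a count filter (0.038) and without the E15.5 libraries numbered 3 (0.049), and -1.33 (adjusted p 4.8e-05) with endothelial marker scaling.

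Igfbp2 had another course, with 163, 182 and 152 CPM in wt libraries at E15.5, 82.7, 88.8 and 109 at P5, 79.2, 75.9 and 104 at P9, and 116, 119 and 138 in adults. It fell by 0.82 on the log2 scale between E15.5 and P5 (adjusted p 0.00083) and rose by 0.53 between P9 and adult (adjusted p 0.025), a call lost without P9 wt library 1 or 2 (0.085 and 0.099) or adult library 3 (0.099). Igfbp5 rose by 0.52 log2 over the same step with overlapping libraries (adjusted p 0.033; 0.058 to 0.15 without any of the P9 wt libraries or adult library 2 or 3). Igf1 fell by 0.75 (adjusted p 0.019; 0.063 to 0.08 without P9 wt library 1 or adult library 1 or 3, and 0.35 with endothelial marker scaling), at 14 to 26 counts a library in adults. Oligodendrocyte markers summed to 20274 to 24496 CPM in wt adults and 1015 to 1869 CPM at P9, and choroid plexus and ependyma markers to 5438 to 6266 and 1696 to 2546 CPM. Their part in these 3 changes was not tested. Igfbp6 rose between E15.5 and P5 by 1.23 log2 at 4 to 33 counts a library (adjusted p 0.026; -0.29 with endothelial marker scaling), a call lost without E15.5 library 1 (0.063) or 3 (0.13) or P5 library 2 (0.079).

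Of the other IGF genes, the 4 RNA partners of Igf2 all fell both between E15.5 and P5 and between P9 and adult in wt libraries, steps in which 30.4% and 30.3% of all genes were lower. H19 averaged 244 ± 46.9 CPM at E15.5, 14.6 ± 2.23 at P5 and 12 ± 1.15 at P9, and had 4, 5 and 6 counts in adults (SD, n = 3). Igf2bp1, Igf2bp2 and Igf2bp3, RNA-binding proteins that bind the Igf2 message, averaged 77.1 ± 20.7, 74.4 ± 9.76 and 39.3 ± 3.66 CPM at E15.5 and 5.47 ± 1.48, 5.52 ± 0.826 and 18.4 ± 1.7 CPM at P5. Igf2bp1 and Igf2bp3 had 3 counts each over the 3 wt adult libraries. Htra1, a protease of binding proteins, averaged 47.5 ± 11 CPM at E15.5, 200 ± 23.6 at P5, 213 ± 17.3 at P9 and 439 ± 74.3 in adults. Igfbpl1, a binding-protein relative of neural progenitors, averaged 177 ± 35.6, 25.6 ± 8.31, 49.1 ± 8.81 and 19.4 ± 2.26 CPM over the same stages. Grb10, an imprinted adaptor that inhibits signalling by the insulin receptor and IGF1R, fell by 1.81 on the log2 scale between P9 and adult (adjusted p 3e-11), while Grb14 rose by 1.14 (7.8e-10).

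Genes with the pattern most like each member's were ranked by Pearson's r of log2 CPM over the 24 libraries, among 12267 genes. Stages and genotype are shared by all genes compared, so r describes these libraries only. Igf2 was closest to Heyl, Ndufa4l2 and Ednra (r = 0.97 each), of which Ndufa4l2 is also on the pericyte list. Igfbp3 was closest to Lpl (0.96), Eif2ak4 (0.95) and Stt3b (0.94), and Igfbp4 to Tspan18, Myh10 and Htra3 (0.99 each). Igf1r came closest to Srgap2, Dennd3 and Atxn7 (0.96 each), and Igf2r to Pxdn, F2r and Apaf1 (0.98 each). Igfbp7 was closest to Nfkb1 (0.99), Igfbp2 to Katnal2 and Igfbp6 to Ezr (0.92 each), and Igf1 to Slc1a5, Heyl and Col5a2 (0.90 each). Igfbp5 had the lowest values, with 0.82 to Penk and 0.81 to Foxj1, a gene of the choroid plexus and ependyma list.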

How the data were processed

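Polyadenylated RNA of CD31-selected brain cells was sequenced as strand-specific Ion Proton libraries, per the labels' protocols. The authors deposited, per gene, raw counts of reads on 1 strand, FPKM and TPM. The FPKM column of the authors equals the count over gene length and library total, and the authors' TPM is length-scaled. The submitters' processing notes name build mm10, STAR 2.5.3a, SAMtools 1.5, FastQC and Trim Galore 0.4.1, without their roles. Deposited starts count from 0 and were raised by 1. Of the IDs, 44948 were found in GENCODE vM21, 87.3% of them with the same start.

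The test took the 17159 genes that averaged 10 counts or more in some group, all 10 members among them. edgeR 4.0.16 (R 4.3.3) fitted all 24 libraries with 1 mean per group, TMM scaling (factors 0.861 to 1.14), prior count 2 and 16 residual degrees of freedom. Contrasts were Sox17iECKO against wt at each stage, the interaction, the 6 pairwise differences between stages, and wt steps. Tests are two-sided and adjusted over all genes. Alternatives were DESeq2 1.42.0 size factors and test, robust limma-trend (limma 3.58.1), endothelial marker scaling, no count filter, fits of only the libraries compared, the replicate number as a block, single libraries left out in turn, and the E15.5 pair numbered 3 left out. The steps were also tested on simulated data. Replicate counts differed beyond sampling noise (chi-square per degree of freedom 6.48 to 39.6), so no library was counted as a duplicate. In GENCODE vM21, Igf2os, Airn, Igf1os, Polr2b and Gm34648 overlap members on the other strand, which the strand-specific counts keep apart. Mir483 and Gm49394 overlap Igf2 on its own strand, so their reads cannot be told from those of Igf2.

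Named genes were all members, Sox17, up to 4 called genes per list and contrast with the smallest adjusted p (a selection of these is reported), and the 3 most alike genes per member with a mean of at least 50 counts. The members and lists were chosen with earlier results of these data known. All 10 members had a RefSeq promoter entry.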

Additional observations from a re-analysis of the deposited data

Results flagged for a closer look

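The effect of Sox17iECKO differed between the 4 stages in edgeR's interaction test for 3 members, with adjusted p-values of 2.1e-10 for Igfbp3, 1.5e-05 for Igfbp4 and 0.0018 for Igf1r. Of all genes tested, 13.5% were called in that test. In each of them the P9 effect stood apart from the other 3 stages, as the pairwise differences show: 0.88, 1.09 and -1.12 log2 for Igf1r (P9 minus E15.5, P9 minus P5, adult minus P9) and -1.04, -1.05 and 1.75 for Igfbp4. Among the other IGF genes named, the test gave 0.00029 for Foxo3, 0.00099 for Insr, 0.018 for Tsc1, 0.0012 for Igfbp1, 0.004 for Stc1 and 0.027 for Adam12. FOXO targets gave 2.6e-06 for Pik3ip1, 1.1e-05 for Txnip, 8.1e-05 for Sesn1, 0.00013 for Klf15 and 7.2e-05 for Tnfsf10. Markers of other cells gave 0.019 for the pericyte gene Rgs5, 0.00048 for the smooth muscle gene Acta2 and 0.00016 for the astrocyte gene Slc1a2. These list genes were named for small adjusted p-values in single contrasts, mostly that at P9, which favours a difference between stages beforehand. Only those under 0.05 are listed here, so the values say nothing about the lists as a whole. Sox17 itself gave 0.012, with 57.2, 22.5 and 78.1 CPM left in adult Sox17iECKO libraries.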

How the results depend on the processing

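The main results were kept in 126 of 139 recomputations. For counts of members called, kept means a total within 1.5 times, whatever the direction and whichever members were called. A count of 0 that stayed at 0 is kept as well. With endothelial marker scaling, wt P5 against E15.5 and wt adult against E15.5 were kept in this sense, though their higher calls were all lost. The only recomputation of another kind compared the order of the members' levels between the authors' TPM and FPKM. Both scale the same counts by gene length, so within a library that order is fixed and the comparison tests little. Without the count filter there were 3 calls at P5, 1 in adult Sox17iECKO against wt, 5 for the interaction, 8 for wt P5 against E15.5 and 2 for wt P9 against P5. That fit gave nearly the same fold changes but far smaller p-values than the others (Igf2 at P9, 2.3e-10 against 0.04). Fits of the compared libraries alone gave 1 call at P5, 1 in adults (Igfbp3) and 3 for wt P9 against P5, and DESeq2 gave 1 in adults and 2 for wt P9 against P5. Leaving out 1 library gave 4 to 7 for wt adult against P9 and for wt P5 against E15.5, and 5 to 6 at P9. Shares of all genes called in the alternative fits are not given, so such counts say nothing particular to the members. The replicate block gave 1 adult call (Igfbp3, adjusted p 0.044) and otherwise no count beyond 1.5 times. The numbers were not treated as pairs, since deviations of equally numbered samples correlated by -0.08 to 0.09 at P5, P9 and adult and by 0.06, 0.37 and 0.49 at E15.5. Unequal numbers at E15.5 gave -0.47 to 0.25, so sharing by number at that stage was not settled by these values.

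With endothelial marker scaling some directions reversed. For wt P5 over E15.5 it gave -1.22 for Igf1, -1.04 for Igf2, -0.38 for Igf1r, -1.33 for Igfbp3, -0.51 for Igfbp4, -0.29 for Igfbp6 and -0.33 for Grb14. For wt adult over P9 it gave 0.00 for Igfbp6 and 0.23 for Igf1r, and for wt adult over E15.5 -0.15 for Igf1r, -1.11 for Igfbp5 and -0.51 for Igfbp7. In adult Sox17iECKO over wt it gave 0.03 for Igfbp2 and 0.08 for Igfbp7. That scaling divides by a sum that itself differs between stages, and moved the median of P9 Sox17iECKO over wt by -0.20.

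The other reversals were of differences that edgeR did not call. At E15.5, Sox17iECKO over wt gave -0.05 for Igf1 and -0.23 for Igf1r without both libraries numbered 3, and Igf1r gave 0.00 with DESeq2 size factors and in DESeq2, -0.03 with the replicate block and -0.03 in limma-trend. In adults Igf2 gave -0.02 with the replicate block and in limma-trend. Leaving out 1 library gave, at E15.5, -0.15 to 0.31 for Igf1, -0.29 to 0.16 for Igf1r, -0.46 to 0.10 for Igfbp5 and -0.71 to 0.18 for Igfbp6. At P5 it gave -0.12 to 0.04 for Igf1, -0.28 to 0.06 for Igf2 and -0.05 to 0.05 for Igfbp7. In adults it gave -0.01 to 0.36 for Igf1, -0.27 to 0.18 for Igf2, -0.31 to 0.12 for Igfbp2, -0.34 to 0.52 for Igfbp6 and -0.08 to 0.09 for Igfbp7. In wt it gave -0.55 to 0.01 for Igfbp5 and P5 over E15.5, -0.27 to 0.01 for Igfbp2 and P9 over P5, and -0.11 to 0.45 for Igfbp5 and adult over E15.5, the last also -0.11 without both E15.5 libraries numbered 3.

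Depth limits Igf1 and Igfbp6, which have at most 63 and 77 counts a library.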
